A study of Homo sapiens with 22 samples.

Results

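PDS5A and RAD21 peaks were compared in untreated cells of clone D7 by chromatin immunoprecipitation sequencing (ChIP-seq), to ask where a regulator of cohesin lay relative to cohesin itself. The members were all 28887 PDS5A peaks and all 37566 RAD21 peaks of that clone, of 341123 peaks in the 12 peak lists of the series. Each peak was placed by overlap of at least 1 bp with the other list, which gave shared, PDS5A-only and RAD21-only peaks. No threshold on a measured level was used beyond the authors' own peak calls.

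Clone D7 is a clone of hTERT RPE-1, a human line from the pigment epithelium of the retina that telomerase keeps dividing. Its genotype is mGreenLantern-P2A-FKBP12(F36V)-NIPBL, so that NIPBL, the cohesin loader, carries a domain that the molecule dTAGV-1 targets for degradation. Both libraries came from cycling cells kept for 24 h in DMSO, the solvent of dTAGV-1, and both carried about 10% mouse NIH/3T3 chromatin as spike-in. The labels list 1 input for both, and the peak names cite that same input. The tag was therefore present in both libraries, and NIPBL had not been degraded in either. Other lists served as readouts that the grouping did not use: CTCF and WAPL from wild-type cells, STAG1 and STAG2 from clone D7, RAD21 after dTAGV-1, and RAD21 from clone A2, in which mCherry takes the place of mGreenLantern. Each list came from 1 library of 1 clone or of wild-type cells, so there was no replicate check and no p-value was computed. Intervals in parentheses are 95% Wilson intervals, which cover counting error only, since peaks of a list are not replicates.

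Cohesin is a ring of SMC1A, SMC3 and the kleisin RAD21, to which STAG1 or STAG2 is bound. It extrudes DNA loops when NIPBL drives it and is retained where CTCF sits on DNA. PDS5A and its paralogue PDS5B bind the same ring, compete with NIPBL for it, take part in its release together with WAPL, and are needed for its arrest at CTCF sites. A PDS5A peak is thus looked for at cohesin sites in the first place, and a PDS5A peak without RAD21 is the less usual case.

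Promoter sequences are shown because the strongest PDS5A-only peaks mostly lay at gene ends. The first set is from promoters under a strong PDS5A peak that no RAD21 peak of clone D7 in DMSO overlapped. Other RAD21 lists had peaks at some of them: clone A2 in DMSO at SLC25A11 and MRPL57, and clone D7 after 4 h of dTAGV-1 at RPS19 and MRPL57. In this set an 8-base CG element, TCGCGAGA, recurred. This element is the core of a palindrome bound by BANP, a factor of CpG-island promoters of essential genes. The stretches run 5′ to 3′ on the gene's strand, come from RefSeq promoter windows of GRCh38.p14, and have the element in capitals, as TCGCGAGA or as its reverse complement TCTCGCGA.

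CDK12: ccgggagctcaTCGCGAGActcaggtgaaa
SLC25A11: tgctgtgtctaTCGCGAGAgcgctccaact
IREB2: tccgcccccgcTCGCGAGAacagcggcgac
TUBGCP5: agctcgaactgTCGCGAGAatagcggtcgg
RPS19: tctaccctcgcTCTCGCGAgctttcggaac
ARF3: atggtgatgggTCTCGCGAgaactgccgct
MRPL57: gcgcagtcctcTCTCGCGAgagccgaagtc
PSMD5: taacggaggctTCTCGCGAggcttggcagc

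The CDK12 stretch lies at chr17:39461322-39461351 on the plus strand, with the element 153 bases before the annotated start. That window holds 3 matches to the element, counted on each strand. The SLC25A11 stretch is at chr17:4940248-4940277 on the minus strand, IREB2 at chr15:78438047-78438076 on the plus strand, and TUBGCP5 at chr15:23039678-23039707 on the minus strand. RPS19 is at chr19:41860176-41860205 on the plus strand and ARF3 at chr12:48957556-48957585 on the minus strand. MRPL57 is at chr13:21176590-21176619 on the plus strand and PSMD5 at chr9:120843016-120843045 on the minus strand.

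The next set is the promoter that both proteins shared and that holds a core motif of CTCF, in capitals, searched on both strands.

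KCNH1: ggcacgagcCCGGTAGGGGGCgccgccggc
PXN: cccgcttagCCGCGAGGGGGCgccaccgcc

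KCNH1 is at chr1:211134213-211134242 and PXN at chr12:120265908-120265937, both on the minus strand. The PDS5A folds of these shared peaks were 107.6 and 99.9. The last set is a shared peak whose promoter holds the CG element, again in capitals.

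DENR: gtcttccggctTCTCGCGAcatccgcccag
ERCC6L2: gaagatttcgtTCTCGCGAgatcccaatga

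DENR is at chr12:122752762-122752791 and ERCC6L2 at chr9:95875588-95875617, both on the plus strand.

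Most PDS5A peaks lay on RAD21 peaks, while only somewhat over 50% of the RAD21 peaks carried PDS5A. Of the PDS5A peaks, 21007, or 72.7% (72.2 to 73.2), overlapped RAD21, and 7880 did not. Of the RAD21 peaks, 20957, or 55.8% (55.3 to 56.3), overlapped PDS5A, and 16609 did not. List length enters both shares: with both lists cut to the same number of strongest peaks they were 65.8% and 65.4%. The full lists made 21156 overlapping pairs, of which 20474 joined 1 peak with 1 peak. The summits of a pair were a median of 34 bp apart, and 79.7% of pairs had summits within 100 bp. Few peaks sat near the boundary of the rule: 28 pairs overlapped by less than 50 bp, and 223 PDS5A-only peaks had a RAD21 peak within 500 bp.

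The peaks left alone were weak on the PDS5A side and less so on the RAD21 side. Fold is the authors' enrichment of a summit over its local background, and it ranks peaks within a list but is not on one scale across lists. Median PDS5A fold was 10.6 at shared peaks and 3.68 at PDS5A-only peaks, of which 186 of 7880 reached a fold of 10. Median RAD21 fold was 17.2 at shared peaks and 6.00 at RAD21-only peaks, of which 4228 of 16609 reached 10. Each list was also ranked by fold and divided into 10 bins of equal size, of which bin 1 is the weakest. In bin 1 of the PDS5A list 27.4% of peaks were shared, and in bin 10 99.2%. The same shares ran from 27.3% to 95.3% in the RAD21 list. The lowest local background recovered in each list, taken as a measure of depth, was 2.76 for PDS5A and 3.00 for RAD21. Median local background was 5.25 at shared and 4.64 at PDS5A-only peaks of the PDS5A list. In the RAD21 list it was 5.69 at shared and 4.46 at RAD21-only peaks.

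CTCF, the zinc-finger protein that retains cohesin, was found at most shared peaks and at a minority of PDS5A-only peaks. Over all PDS5A peaks 74.9% overlapped a wild-type CTCF peak, against 83.1% of all RAD21 peaks. At shared peaks the share was 92.9% (92.6 to 93.3), at RAD21-only peaks 70.3% (69.6 to 71.0) and at PDS5A-only peaks 26.8% (25.8 to 27.8). Fold moved with this share: among peaks of PDS5A bin 1, 62.5% of the shared and 16.3% of the PDS5A-only peaks overlapped CTCF. In bin 5 the shares were 93.1% and 62.7%. The order of shared above PDS5A-only was thus also seen at like fold. The PDS5A-only share depended on the calls, at 63.4% with both lists held to a −log10 q of at least 10 and 8.54% against the stronger 50% of CTCF peaks. For the 63.4% the classes were formed anew, so PDS5A peaks over a RAD21 peak below the cut count as PDS5A-only.

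A larger share of PDS5A peaks than of RAD21 peaks lay at gene ends. A summit was counted at a gene end when it lay within 1 kb of either end of 1 of 19974 protein-coding genes. This held for 23.3% of all PDS5A peaks and 16.2% of all RAD21 peaks. By class it was 21.9% (21.3 to 22.4) of shared PDS5A peaks, 27.1% (26.2 to 28.1) of PDS5A-only peaks and 9.35% (8.92 to 9.80) of RAD21-only peaks. The order of shared and PDS5A-only peaks depended on fold. In PDS5A bin 1 it was 47.8% of shared and 25.9% of PDS5A-only peaks, and in bin 4 32.4% and 27.4%. Among stronger peaks the order turned, with 23.5% and 32.7% in bin 5 and 15.7% and 62.4% in bin 7. With both lists cut to a −log10 q of 10 or more and the classes formed anew, the PDS5A-only share was 50.7%. A PDS5A peak over a RAD21 peak below the cut counts as PDS5A-only there. At equal list length, with classes likewise formed anew, the RAD21-only share was 5.24%. For genes of known strand the 5′ end prevailed: 19.6% of PDS5A-only summits were within 1 kb of a 5′ end and 5.30% within 1 kb of a 3′ end.

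The largest group of PDS5A-only peaks had neither feature. It counted 4369 peaks, 55.4% of that class, with a median fold of 3.48 and a median width of 451 bp. Of these, 94.9% (94.2 to 95.5) were in none of the other 10 lists, and 22 reached a fold of 10. Of shared peaks 2.43% had neither feature. Whether so weak a set would recur in another PDS5A library was not tested, as there was 1 library.

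The STAG subunit separated RAD21 peaks with PDS5A from those without. STAG1 and STAG2 are the alternative subunits that bind RAD21, and each ring holds 1 of them. Of the 9687 RAD21 peaks that overlapped STAG1 alone, 71.1% (70.2 to 72.0) carried PDS5A. Of the 3338 that overlapped STAG2 alone, 5.45% (4.73 to 6.28) did, against 55.8% of all RAD21 peaks. With both subunits the share was 74.5% and with neither 26.0%. Peaks with both were stronger, at a median RAD21 fold of 25.6 against 7.66 with STAG1 alone. In bins 4 to 7 of the RAD21 list the share was 56.4% with both and 78.8% with STAG1 alone.

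The gap between STAG1-only and STAG2-only peaks was seen at like RAD21 strength. Their median RAD21 folds were 7.66 and 6.59. In bin 1 of the RAD21 list 41.4% of STAG1-only and 1.80% of STAG2-only peaks were shared, and in bin 7 90.9% and 9.61%. Both kinds mostly overlapped CTCF, at 80.2% and 74.96%. They differed in place: 34.6% of STAG1-only and 1.92% of STAG2-only summits lay at a gene end. The gap was also seen among peaks grouped by place, CTCF and fold. These groups are broad, so place and fold were matched only in part, and local background was not matched. Among CTCF-overlapping peaks of bins 4 to 7, 85.2% of STAG1-only and 11.2% of STAG2-only peaks within 30 kb of a gene end were shared, and farther out 66.7% and 6.52%.

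**Figure D1:**
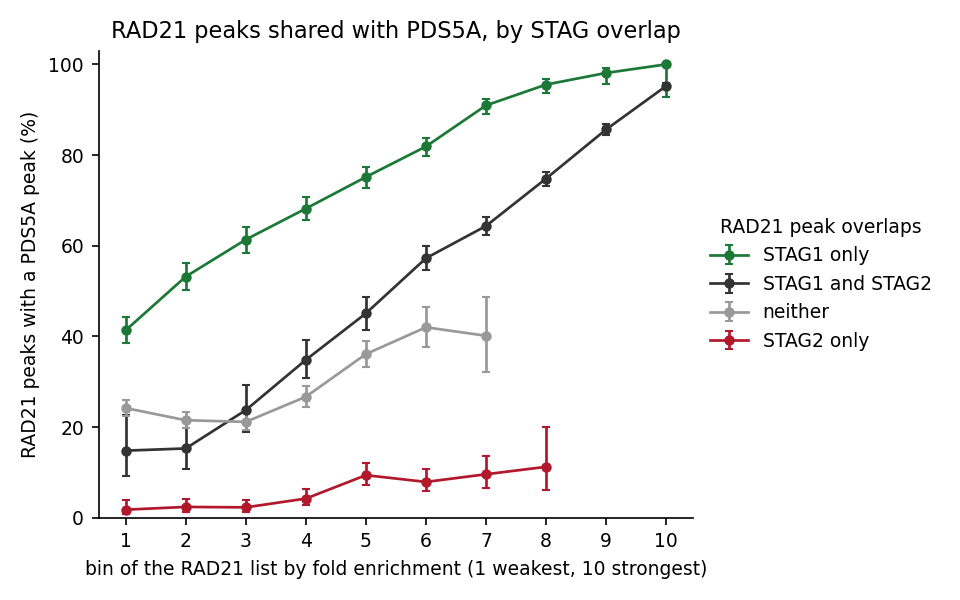
Share of RAD21 peaks with an overlapping PDS5A peak (vertical axis, percent) by bin of the RAD21 list in order of fold enrichment (horizontal axis), for peaks that overlap STAG1 only, both STAG lists, neither or STAG2 only. Bars are 95% Wilson intervals and points with fewer than 20 peaks are left out; STAG2-only peaks stay below 12% in every bin shown, while STAG1-only peaks rise from 41.4% to 100%.

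The same split was seen from the side of the other lists. STAG1 peaks overlapped 87.9% of shared and 40.6% of RAD21-only peaks, and STAG2 peaks 55.9% and 42.7%. Within each range of RAD21 fold the order for STAG2 was the opposite: it covered 4.25% of shared and 22.5% of RAD21-only peaks in the weakest 3 bins, 34.8% and 53.7% in the middle 4, and 90.4% and 97.5% in the strongest 3. STAG1 covered 85.4% and 45.3% in the middle 4 bins. WAPL, the release factor, had 2667 peaks and overlapped 11.6% of shared, 1.10% of RAD21-only and 0.114% of PDS5A-only peaks. PDS5A-only peaks were rare in both STAG lists, at 5.99% for STAG1 and 0.711% for STAG2.

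RAD21 peaks far from gene ends carried PDS5A less often. A summit deep inside a long gene counts as far here, and 49.98% of shared and 49.4% of RAD21-only summits lay inside a gene. The shared percentage was 74.4% (73.3 to 75.5) within 1 kb of a gene end, 66.3% at 1 to 10 kb, 58.5% at 10 to 30 kb and 46.2% at 30 to 100 kb. It was 34.98% at 100 to 300 kb and 26.1% (24.1 to 28.2) beyond 300 kb. In the strongest 3 bins of the list it went from 97.7% at gene ends to 58.9% (54.2 to 63.5) beyond 300 kb. Over the same strong peaks STAG1 went from 100% to 98.6%, STAG2 from 84.1% to 94.4%, and RAD21 of clone A2 from 100% to 99.3%. STAG1 and clone A2 RAD21 were close to 100% at these strong peaks, so a decline could hardly show there. In the middle 4 bins, looked at after this was seen, PDS5A went from 85.4% to 24.5%, STAG1 from 85.4% to 51.6%, clone A2 RAD21 from 94.4% to 89.8% and STAG2 from 17.1% to 59.5%. STAG1 thus also fell with distance there, and STAG2 went the other way. The median local background of RAD21 peaks moved with distance too, from 6.53 to 3.96, and its part in the result was not tested.

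**Figure D2:**
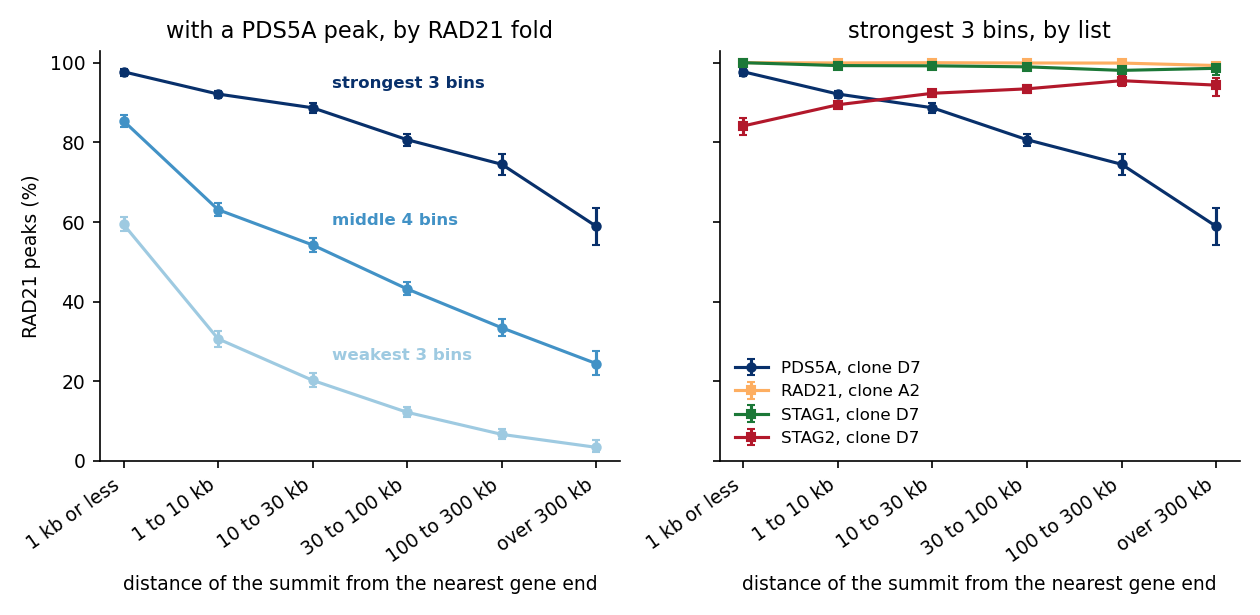
Left, share of RAD21 peaks that overlap PDS5A (percent) by distance of the summit from the nearest gene end, for the strongest, middle and weakest RAD21 peaks by fold. Right, the strongest 3 bins only, with the share that overlaps PDS5A, RAD21 of clone A2, STAG1 and STAG2; PDS5A ends at 58.9% beyond 300 kb and the other lists at 94.4% or above, with 95% Wilson intervals as bars.

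Among chromosomes, the shared percentage of RAD21 peaks was highest on 19 and lowest on 4. On chromosome 19, with 1451 protein-coding genes, there were 1408 PDS5A and 1235 RAD21 peaks and 78.5% of RAD21 peaks were shared. On chromosome 4, with 770 genes, there were 1104 and 1954 peaks and 40.5% were shared. The share of PDS5A peaks with RAD21 varied less, from 65.9% on chromosome 10 to 76.7% on chromosome 15.

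NIPBL degradation was followed in the RAD21 lists of both clones and gave another readout for the classes. Of shared RAD21 peaks 92.4% were found again in the list after 4 h of dTAGV-1 in clone D7 and 79.6% after 24 h, against 64.4% and 55.1% of RAD21-only peaks. Strength moved with this difference. In the middle 4 bins the 4 h shares were 92.5% for shared and 76.7% for RAD21-only peaks, and the 24 h shares 74.8% and 71.3%. In clone A2 the order was the opposite at 4 h in these bins, with 58.8% of shared and 67.4% of RAD21-only peaks found again. The same held there for the weakest 3 bins, at 8.03% and 17.9%, and the strongest 3, at 98.4% and 99.2%. At 24 h clone A2 gave 20.7% and 26.8% in the weakest, 73.4% and 71.3% in the middle and 98.9% and 98.7% in the strongest bins. Over all bins its lists held 69.3% and 46.4% at 4 h and 77.1% and 52.3% at 24 h. That is the order of clone D7, but shared peaks were stronger, so these last shares are not at like fold. With 1 library each, the difference between the clones at 4 h was not tested.

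At shared peaks the ranks of both folds went together where CTCF was present and hardly at all where it was not. Spearman's rho between PDS5A and RAD21 fold was 0.78 over 21156 pairs, 0.77 over 19656 CTCF-overlapping pairs and 0.18 over 1500 CTCF-free pairs. These are descriptions across sites, which share the input library and base composition. The CTCF-free pairs span a narrow range, with median folds of 3.97 for PDS5A and 4.29 for RAD21. CTCF-overlapping pairs with a PDS5A fold under 5 had a rho of 0.21, so a narrow range came with a low rho there as well. With STAG1 and STAG2 both present rho was 0.72, with STAG1 alone 0.72 and with neither 0.49. With STAG2 alone it was 0.22 over 182 pairs.

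**Figure D3:**
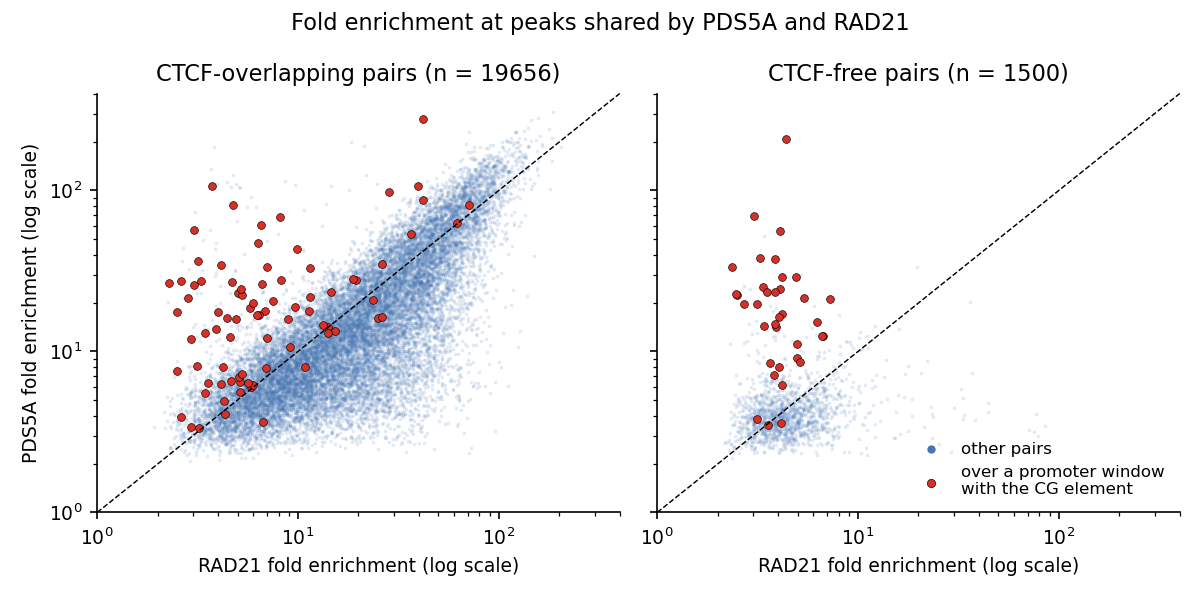
PDS5A fold against RAD21 fold (both on log axes, the authors' values) for every overlapping pair, with CTCF-overlapping pairs on the left and CTCF-free pairs on the right; the dashed line marks equal values. Red points are the 118 pairs over a promoter window with the CG element, and most of them sit above the cloud, at a median PDS5A fold of 17.7 and a median RAD21 fold of 4.93.

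The shared peaks with the highest PDS5A fold lay at strong RAD21 sites. On chr1:222465030-222465987, 56755 bp from HHIPL2, the PDS5A fold was 308.4 and the RAD21 fold 185.6. On chr1:225474207-225475732, 11710 bp from ENAH, an actin regulator, they were 282.8 and 156.2. At DENR, a translation re-initiation factor, on chr12:122752136-122753398, they were 279.6 and 42.1, which put PDS5A at percentile 99.99 of its list and RAD21 at percentile 89.6. All 3 overlapped CTCF, STAG1, STAG2 and WAPL peaks.

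Pairs whose ranks differed most fell into distinct places. Percentile rank differed by over 40 points towards PDS5A in 276 pairs and towards RAD21 in 681. Of the first, 65.2% (59.4 to 70.6) were at a gene end, 22.5% over a window with the CG element and 18.1% in the STAG2 list. Of the second, 9.10% were at a gene end, 0 of 681 over such a window and 78.1% in the STAG2 list. Of the 20199 pairs in between, 21.8% were at a gene end and 0.277% over an element window. The RAD21 folds of these groups differ by construction, and STAG2 overlap rose with RAD21 fold, so the STAG2 shares are not compared at like strength.

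Several of the largest rank differences came from peaks that were split in one list and merged in the other. At CEBPB, TLN2 and DLX2 a weak PDS5A peak touched a RAD21 peak of fold 71.4 to 77.7 that also overlapped a PDS5A peak of fold 46.8 to 82.0. At FAIM2 and COPZ2 a PDS5A peak covered 2 RAD21 peaks, the stronger of which had folds of 39.9 and 64.1. Among pairs of 1 peak with 1 peak, a choice made after these were seen, the leading gene ends were those of LRSAM1 and RPL12, which share a promoter, with a PDS5A fold of 69.3 and a RAD21 fold of 3.04. RBM39, a splicing factor, followed with 186.8 and 3.81, and EIF5, a translation initiation factor, with 43.6 and 2.68. A peak inside BANP, 2253 bp from its nearer end, had 56.8 and 3.02. Towards RAD21 they were a site on chromosome 8, 74803 bp from LRRCC1, at 2.69 and 42.6, one inside DNAJC18, 12730 bp from its end, at 2.69 and 40.1, one 1881 bp from IKZF2, at 2.67 and 37.7, and one at an end of MLLT3, at 2.36 and 34.5.

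The strongest PDS5A-only peaks lay at gene ends. The strongest peak, at chr17:39460739-39462171, lay 52 bp from an end of CDK12, a kinase of RNA polymerase II, with a PDS5A fold of 201.6. Of the other 10 lists only WAPL had a peak there. At RNF167 and SLC25A11, on chr17:4939768-4940969, the fold was 109.6. At IREB2, an iron-responsive regulator, on chr15:78437612-78438869, it was 108.1, and at PRDX1, a peroxidase, on chr1:45521423-45522362 and 967 bp from the end, it was 100.3. TUBGCP5, a gamma-tubulin complex subunit, had 93.7, RPS19 had 86.0 and ARF3, a Golgi GTPase, 80.0. The RefSeq table gives no exons, so these places are stated relative to gene ends only.

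These peaks were alone with respect to clone D7 RAD21 in DMSO, and some carried cohesin elsewhere. Of the 186 PDS5A-only peaks with a fold of at least 10, 137 were at a gene end and 86 overlapped CTCF. RAD21 of clone A2 in DMSO overlapped 45, RAD21 of clone D7 after 4 h of dTAGV-1 63, STAG1 26, STAG2 1 and WAPL 6. RNF167 and PRDX1 had a clone A2 RAD21 peak, and RPS19 and PRDX1 a clone D7 RAD21 peak at 4 h. A peak list holds no level below its threshold, so weak RAD21 at these promoters was not detectable here.

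The CG element was found at most of these promoters. It was noticed after the peaks had been ranked, so its share among them is a description. The RefSeq table gave 34789 promoter windows of 250 bases before to 50 bases after a start, and 1.14% of all windows held TCGCGAGA on either strand. Of the 142 windows that held the summit of a PDS5A-only peak with a fold of at least 10, 104 did, or 73.2% (65.4 to 79.8). The share was 23.7% at folds of 5 to 10 and 1.62% below 5. It was 5.48% of the 2408 windows under shared peaks and 1 of 705 under RAD21-only peaks. The full palindrome of 10 bases, which contains the element, was in 37.3% of the strong PDS5A-only windows. Of the 20 strongest PDS5A-only peaks at a gene end 17 had a window in the table, and 15 of these held the element. TMEM18 and NCAPG were those without it.

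Other promoter motifs did not set these windows apart in the same way. The CTCF core motif was in 0 of the 142 windows, with a Wilson upper bound of 2.63%, and in 9.22% of windows under shared peaks and 1.75% of all windows. The ETS motif CCGGAAGT was in 13.4% of the strong windows, in 12.9% of those with a PDS5A-only fold below 5, in 8.01% under shared peaks and in 4.12% of all. The GC box GGGCGG was in 68.3%, 80.9% and 73.5% of these 3 groups. A match of letters is a description and not a binding site.

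Read from the sequence, windows with the element were overlapped by PDS5A more often than by RAD21. The element was picked from strong PDS5A-only peaks, and all windows with it include the 104 under those peaks. The difference between PDS5A and RAD21 is thus partly set by that choice and is a description. Of all promoter windows 23.2% were overlapped by a PDS5A peak and 20.9% by a RAD21 peak. Of the 396 windows with the element, PDS5A overlapped 338, or 85.4% (81.5 to 88.5), and RAD21 129, or 32.6% (28.1 to 37.3). With a −log10 q of 10 or more these were 82.3% and 20.7%, and at equal list length 85.4% and 18.7%. STAG1 overlapped 28.8%, STAG2 3.28% and CTCF 34.6%. In windows without the element and with a GC content of at least 60%, PDS5A overlapped 39.5% and RAD21 33.8%. STAG1 overlapped 30.0% of these, CTCF 30.3% and WAPL 0.481%, against 3.54% of element windows for WAPL. RAD21, STAG1 and CTCF were thus near their level in GC-rich promoters, and PDS5A and WAPL, the latter at 14 element windows, were above theirs. Median PDS5A fold at element windows was 15.9, against 4.80 in the GC-rich windows without it, and median RAD21 fold was 4.82 against 5.65. PDS5A without RAD21 was found at 53.8% of element windows and 8.51% of all windows. Windows with the CTCF core motif showed PDS5A and RAD21 at 54.6% and 52.8%.

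**Figure D4:**
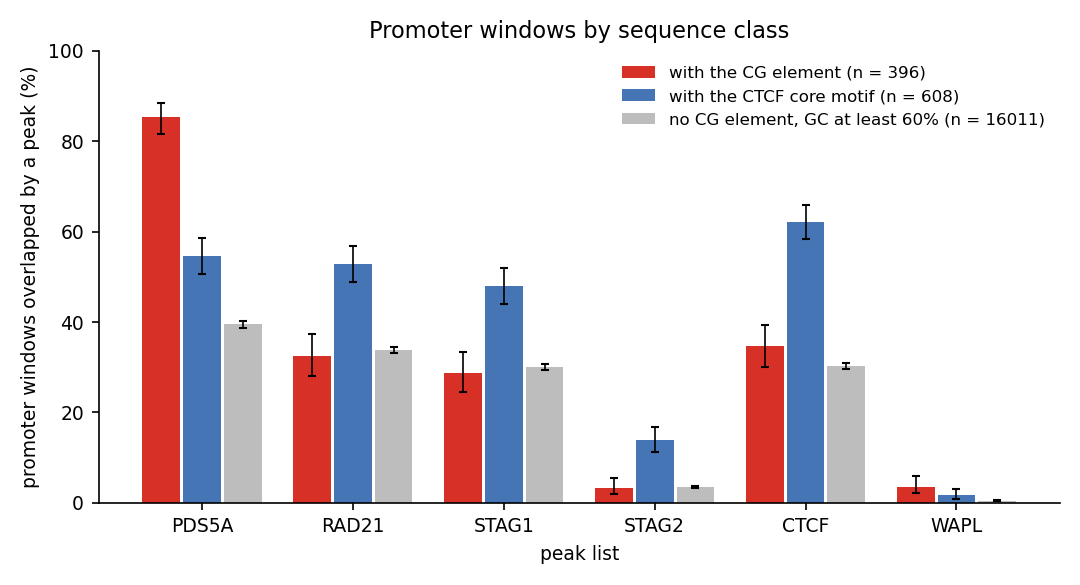
Share of promoter windows of 300 bases overlapped by a peak of each list (vertical axis from 0, percent), for windows with the CG element, with the CTCF core motif, and without the element at a GC content of at least 60%. Bars carry 95% Wilson intervals; PDS5A stands at 85.4% over the element and RAD21 at 32.6%, while they stand at 54.6% and 52.8% over the CTCF core motif.

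Windows with 2 or more matches to the element had stronger PDS5A peaks than windows with 1. Matches were counted on each strand, so 1 full palindrome of 10 bases counts as 2. As 144 windows held that palindrome, the comparison is largely of full with partial palindromes and not of the number of sites. Windows with 1 match were overlapped by PDS5A in 80.3% (74.7 to 84.9) of 233 cases at a median fold of 10.6. Windows with 2 or more were overlapped in 92.6% (87.6 to 95.7) of 163 cases at a median fold of 24.6. RAD21 overlapped 33.0% and 31.9%, at median folds of 5.21 and 4.13. Overlapping windows of one gene with several starts share sequence, so these counts are not independent.

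PDS5A summits sat on the element, and RAD21 summits of shared peaks did not. The median distance from the summit to the centre of the nearest element was 6.5 bp for the 79 PDS5A-only peaks with a fold of at least 10, of which 77 were within 50 bp. It was 9 bp for 98 shared PDS5A peaks and 82 bp for the 40 shared RAD21 peaks whose summit was in such a window, of which 12 were within 50 bp. These distances are among summits already inside a 300-base window.

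**Figure D5:**
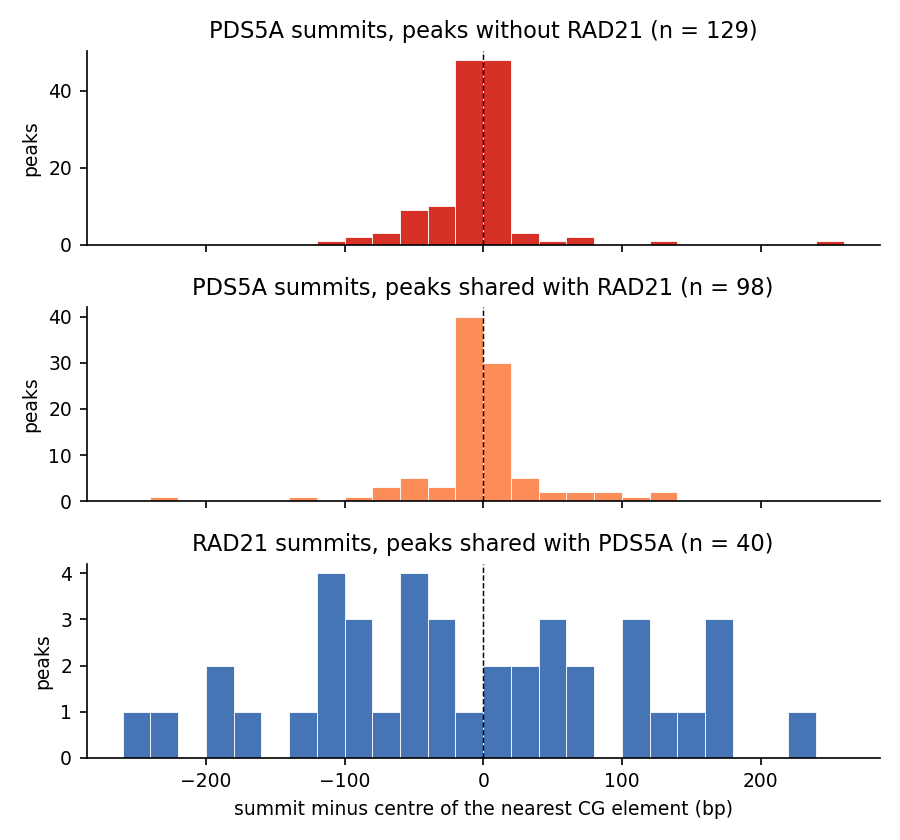
Distance in bp from a peak summit to the centre of the nearest CG element within the same promoter window (horizontal axis), as counts of peaks in steps of 20 bp, for PDS5A-only peaks, shared PDS5A peaks and shared RAD21 peaks. Both PDS5A panels peak at 0, with medians of 8.5 and 9 bp, and the RAD21 panel is spread with a median of 82 bp.

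RAD21-only peaks of high fold were intergenic or intragenic CTCF sites. The strongest was at chr12:1117708-1118725 inside ERC1, with a RAD21 fold of 89.0. The next 2, on chromosome 8 near FABP5 and inside SAMD12, had 86.3 and 85.3, and those near GIPC2 and inside CFAP20DC had 83.5 and 81.8. All 5 overlapped CTCF, STAG1, STAG2 and the other 5 RAD21 lists. At gene ends the strongest were TGFBR2, a TGF-beta receptor, at 58.4, RGS1 at 52.0, QNG1 at 46.6 and ZBBX at 46.0, and these too were in all of those lists. Of the 4228 RAD21-only peaks with a fold of at least 10, 97 were at a gene end and 4182 were in the clone A2 DMSO list.

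Counted over genes, 36.2% of protein-coding genes had a PDS5A peak at an end and 32.2% a RAD21 peak. PDS5A without RAD21 was found at 11.5% of genes and RAD21 without PDS5A at 7.51%. These genome-wide counts moved with the calls used: at equal length 3658 genes had PDS5A without RAD21 and 524 the reverse, against 2304 and 1500 with the full lists. With a −log10 q of 10 or more the order turned, with 1188 genes for PDS5A alone and 1449 for RAD21 alone. The list shares given next were counted with the full lists.

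Genes of the ribosome and of histones had PDS5A without RAD21 more often than that. Of 84 cytosolic ribosomal protein genes 58 had PDS5A and 24 RAD21, and 35, or 41.7%, had PDS5A alone. Their PDS5A folds had a median of 6.14: RPS6 had 40.2, RPL17 had 28.8 and RPS15 had 22.1. The CG element was in a window of 5 of the 35, so most of this group was without it. RPS19 was not among the 35, since a RAD21 peak of fold 14.6 also lay within 1 kb of one of its ends. Of 72 replication-dependent histone genes, which are expressed in S phase, 40 had PDS5A, 7 had RAD21, and 33, or 45.8%, had PDS5A alone. Their folds were modest, from 2.90 to 11.8, as at H3C2 with 11.8, H2BC11 and H2AC11, which share a peak, with 9.70 and H4C3 with 8.99. Adjacent histone genes share peaks, and the 33 genes rested on 24 distinct PDS5A peaks. Ribosomal protein and histone genes have near-identical copies, and how reads of such copies were placed is not given in the sources used here.

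Other household lists had PDS5A alone less often than cytosolic ribosomal protein and histone genes. Their shares ran from 13.3% of Mediator genes, near the 11.5% of all genes, to 25.6% of proteasome genes. RAD21 alone, found at 7.51% of all genes, was at 2.56% of proteasome genes. In the other household lists it ran from 8.33% of RNA polymerase II genes to 16.7% of replication licensing genes. Mediator genes had RAD21 alone as often as PDS5A alone, at 13.3%. PDS5A alone was found at 12 of 77 mitochondrial ribosomal protein genes, 10 of 39 proteasome genes, 13 of 55 translation initiation factors, 7 of 34 complex I genes, 4 of 20 aminoacyl-tRNA synthetases, 3 of 12 RNA polymerase II subunits, 4 of 30 Mediator subunits and 3 of 12 genes of replication licensing. The strongest among them were MRPL57 with 66.9 and PSMD5 with 63.9. Of 509 zinc-finger ZNF genes 56 had PDS5A alone and 60 RAD21 alone.

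Both proteins were found at an end of 24.7% of all protein-coding genes. Of 14 YAP and TGF-beta target genes, 12 had both and none had 1 alone. COL1A1, a collagen chain, had a PDS5A fold of 156.0 and a RAD21 fold of 121.5. THBS1, a matrix glycoprotein, had 64.7 and 47.6, and ANKRD1 32.8 and 60.3. Of 20 AP-1 and immediate early genes 13 had both, as JUND with 54.3 and 49.8 and DUSP1 with 14.7 and 20.03. EGR1, ZFP36 and BTG2 had PDS5A alone and KLF4 had RAD21 alone. Of 53 clustered protocadherin genes, where CTCF and cohesin govern promoter choice in neurons, 22 had both. All 22 are genes of the gamma cluster, which share an end, and most carried the same PDS5A peak, so they are not separate cases. PDS5A was at 9 of 392 olfactory receptor genes and 1 of 94 keratin-associated protein genes, against 36.2% of all protein-coding genes. Expression of these genes was not measured here. Of 15 genes of the retinal pigment epithelium 2, KRT18 and RDH5, had both, and MITF had RAD21 alone. HOX genes had PDS5A at 8 of 39.

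Cohesin's own genes were held by PDS5A in 13 of 19 cases and by RAD21 in 9. Both were at STAG2, with a PDS5A fold of 106.0 and a RAD21 fold of 61.0, at PDS5B with 104.6 and 59.3, at STAG1 with 81.4 and 71.1 and at CTCF with 41.0 and 24.2. Of the remaining genes with both, the loader NIPBL had 11.4 and 8.47, CDCA5, which encodes sororin, 10.2 and 13.9, the separase gene ESPL1 8.93 and 11.01, ESCO1 6.73 and 6.79 and SMC3 4.73 and 2.40. PDS5A alone was at MAU2, the partner of NIPBL, with 17.6, at SMC1A with 6.63, at WAPL with 3.22 and at SGO1 with 3.18. Genes with no peak of either list at an end included PDS5A, RAD21, HDAC8, ESCO2 and PTTG1.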

How the data were processed

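Peak lists from ChIP-seq of clone D7 in DMSO were compared, 1 library each for PDS5A and RAD21. The authors deposited each peak's fold enrichment over local background at its summit, its −log10 p and −log10 q, and an integer score derived from them, and the score was not used. The submitters' processing notes name BWA, Picard, SAMtools, bedtools, deepTools and MACS2 and the builds hg38 and mm10, with no versions. The deposited peak names carry a q of 0.01 for both lists and 0.001 for CTCF. Whether spike-in scaling entered the lists is not given in the sources used here.

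Overlap needed at least 1 bp. A gene end was either end of a protein-coding gene of RefSeq GRCh38.p14 (19974 genes on chromosomes 1 to 22 and X), within 1 kb of a summit. Either end was used because start sites were known for 15813 of these genes. Promoter windows came from the RefSeq table, which held none on chromosome 8. Pileups, recovered from fold and −log10 p, were whole within 0.01 for all peaks with a −log10 p below 250. For bins by fold, each list was ranked by fold and divided into 10 bins of equal size. Tools were Python 3.11.15, pandas 2.3.3, numpy 2.4.6, scipy 1.17.1 and matplotlib 3.10.9, and the scripts were tested on simulated lists. With 1 library per protein no test was made.

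Named peaks were the 3 shared pairs of highest PDS5A fold, the 3 of largest rank difference each way, the 5 PDS5A-only and 5 RAD21-only peaks of highest fold, the 8 and 4 of highest fold at a gene end, and the cohesin genes, of which a few are not reported here. The 4 further pairs each way, and the genes named from other lists, were chosen after their values were seen. The members and lists were chosen with earlier results of these data known. Alternatives were stricter calls, equal list lengths, other overlap rules, other RAD21 and CTCF lists and other windows.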

Additional observations from a re-analysis of the deposited data

How the results depend on the processing

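With both lists held to a −log10 q of at least 10, 89.6% of PDS5A peaks were shared. Classes were formed anew from the cut lists, here and at equal list length, so a peak over a partner below the cut counts as not shared. CTCF overlap was then 98.4% at shared PDS5A, 63.4% at PDS5A-only and 84.4% at RAD21-only peaks, and gene-end shares in that order were 16.9%, 50.7% and 10.1%. STAG1 covered 92.9% of shared and 55.5% of RAD21-only peaks and STAG2 63.8% and 49.5%, and 1188 genes had PDS5A without RAD21 and 1449 the reverse, which turned the order of the full lists. At equal list length 65.8% of PDS5A and 65.4% of RAD21 peaks were shared, CTCF overlap was 96.7%, 32.8% and 87.6%, and gene-end shares were 17.9%, 33.7% and 5.24%. STAG1 covered 91.9% and 53.5% and STAG2 61.5% and 55.8%, with 3658 genes for PDS5A without RAD21 and 524 for the reverse. Requiring an overlap of 50% of both peaks gave 63.1% and 48.5% shared, with CTCF at 94.9%, 40.7% and 71.9%, and requiring summits within 200 bp gave 64.0% and 49.2%, with CTCF at 95.2%, 38.8% and 71.3%. The upper 50% of CTCF peaks overlapped 78.8%, 8.54% and 48.3%. Gene-end shares were 29.9%, 35.3% and 13.8% with a 2.5 kb window and 15.5%, 19.6% and 6.70% with 5′ ends only, a choice made after seeing the data. Against RAD21 of clone A2, 70.2% of PDS5A peaks were shared, with CTCF at 94.5%, 28.6% and 76.9% and gene ends at 20.4%, 30.1% and 8.13%, and against any of the 6 RAD21 lists 78.5% were. The rank correlation of fold was 0.18 over CTCF-free pairs. The cause of these shifts was not tested beyond the fewer peaks that stricter settings keep.

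With a −log10 q of at least 10 RAD21 overlapped 20.7% of element windows, and at equal list length 18.7%. Of the other choices made after seeing the data, strong PDS5A-only windows held the element in 42.7% at a fold of at least 5, 85.7% at 20 and 73.2% with no peak in any RAD21 list. With the STAG1 list cut to the length of the STAG2 list, 78.3% of STAG1-only and 8.11% of STAG2-only RAD21 peaks were shared. A list shows nothing below its call, which limits every statement on absence. No paired analysis was possible because each group had 1 library.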
